A study of Mus musculus with 8 samples.

Results

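Of 28460 genes in the deposited table, 108 were higher in Brg1 WT replicates 1 and 2 than in Brg1 WT replicates 3 and 4 by a fixed rule: a mean of at least 3 CPM (estimated counts per 1000000 of the library total) in replicates 1 and 2, at least 2 times the mean of replicates 3 and 4, with both of replicates 1 and 2 above both of the others. Histone genes, mitochondrial genes and 13 markers of spermatocyte stage were left out by name, and 5 of those markers (Adam2, Clgn, Gml, Ldhc and Piwil1) met the same thresholds. The values that chose the 108 genes were those of the Brg1 WT libraries, so differences among those libraries are given as a description, without a test. The set was proposed as transcripts that vary with the progress of spermatogenesis in wild type, but stage was not measured, and beside spermatocyte and sperm genes it held pseudogenes, Leydig cell genes and signalling genes. It is therefore called here by its rule, the transcripts higher in Brg1 WT replicates 1 and 2.

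The study sequenced RNA from spermatogenic cells of mice at postnatal day 12. The Brg1 cKO group held 4 libraries from testes with a conditional knockout of Brg1, and the Brg1 WT group held 4 libraries from testes labelled wild type for the gene. Both groups were of mixed strain background, and in both the testes were digested with collagenase and trypsin and the cells passed through a sieve, frozen and extracted. The sources used here do not give the Cre line that deletes the gene, the cells in which it acts, the alleles carried by the Brg1 WT mice or the number of animals behind a library. Each library is labelled a biological replicate of its genotype.

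Male germ cells of the young mouse testis enter meiosis in a first, nearly synchronous wave, so a small difference in developmental progress changes how many cells have reached each stage of meiotic prophase. Genes for recombination are transcribed before and during pachytene, the stage in which homologous chromosomes are fully paired, and genes for later sperm parts begin to be transcribed in spermatocytes under regulators such as MYBL1. Smarca4 encodes BRG1, which supplies the ATPase activity with which SWI/SNF complexes move nucleosomes.

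The targeted gene followed the labels. Smarca4 had 124.0, 120.4, 107.1 and 120.2 CPM in Brg1 cKO replicates 1 to 4, against 379.5, 368.2, 348.3 and 329.2 CPM in Brg1 WT replicates 1 to 4. It fell by 1.52 ± 0.06 on the log2 scale (SE, n = 4 each, adjusted p = 6.8e-06 by edgeR's quasi-likelihood test). Library totals lay between 20456700 and 32596000 estimated counts. The summed level of 22 leptotene and zygotene genes was 1282 to 1599 CPM in the Brg1 cKO libraries, against 3028, 2168, 1961 and 1873 CPM in Brg1 WT replicates 1 to 4. The 13 left-out stage markers summed to 141.2 to 171.1 CPM in the Brg1 cKO libraries, against 371.5, 305.1, 217.9 and 192.4 CPM in Brg1 WT replicates 1 to 4. Both sums were lowest in the Brg1 cKO group without overlap, and within the Brg1 WT group both were higher in replicates 1 and 2 than in replicates 3 and 4. In bulk RNA, fewer cells of a type and less RNA per cell cannot be told apart.

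Somatic cells were present beside the labelled spermatogenic cells. The 14 Sertoli cell genes summed to 6232 to 8195 CPM in the Brg1 cKO libraries, against 5244 to 6260 CPM in the Brg1 WT libraries, and 7 of them rose in Brg1 cKO, where 8.79% of all genes tested were called higher. The 8 Leydig cell genes summed to 81.4, 93.3, 70.2 and 37.2 CPM in Brg1 cKO replicates 1 to 4, against 45.6, 56.9, 45.3 and 35.2 CPM in Brg1 WT replicates 1 to 4. The 10 genes of epididymal epithelium stayed at a summed 1.66 to 2.29 CPM in Brg1 cKO and 1.51 to 2.10 CPM in Brg1 WT, with 4 of them at 0 in every library. The part of somatic cells in the results below was not tested.

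**Figure D1:**
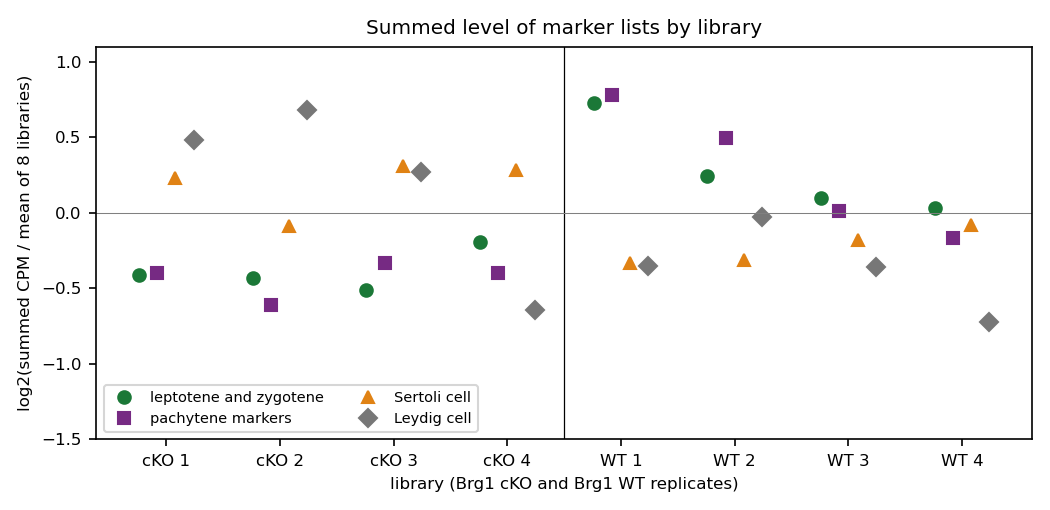
The plot shows the summed CPM of 4 marker lists in each of the 8 libraries, on a log2 scale relative to the mean of the 8, with Brg1 cKO replicates on the left and Brg1 WT replicates on the right. Leptotene and zygotene genes and the left-out pachytene markers stand highest in Brg1 WT replicate 1, while the Leydig cell list is highest in Brg1 cKO replicate 2 (93.3 CPM) and lowest in Brg1 WT replicate 4 (35.2 CPM).

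In kind, the 108 transcripts were mixed. RefSeq annotation matched 102 of the symbols, 16 of them through an older symbol, and listed 80 as protein coding, 21 as pseudogenes and 1 as a long noncoding RNA. A provisional symbol was carried by 35. The X chromosome held 13 of the matched transcripts, or 12.7%, against 4.61% of the 15653 matched genes tested, and 3 of the 13 were pseudogenes. Sorted by textbook role, with the values already known, 10 act in meiotic chromosomes and their gene regulation, 12 in sperm structure and germline metabolism, 13 in signalling, transport and lipid enzymes, 3 mark Leydig or endothelial cells, 22 are pseudogenes or retrocopies and 48 fall in none of these.

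Just inside the threshold stood Rhov at a ratio of 2.02 between the means of Brg1 WT replicates 1 and 2 and replicates 3 and 4, Hpgd at 2.02 and Abca8a at 2.03. Just outside it stood Pcna-ps2 at 1.996, Drd4 at 1.995 and Cdkn2b at 1.98. The median ratio was 2.43 among the 108, against 1.07 among all genes tested, which is what the rule selected for.

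**Figure D2:**
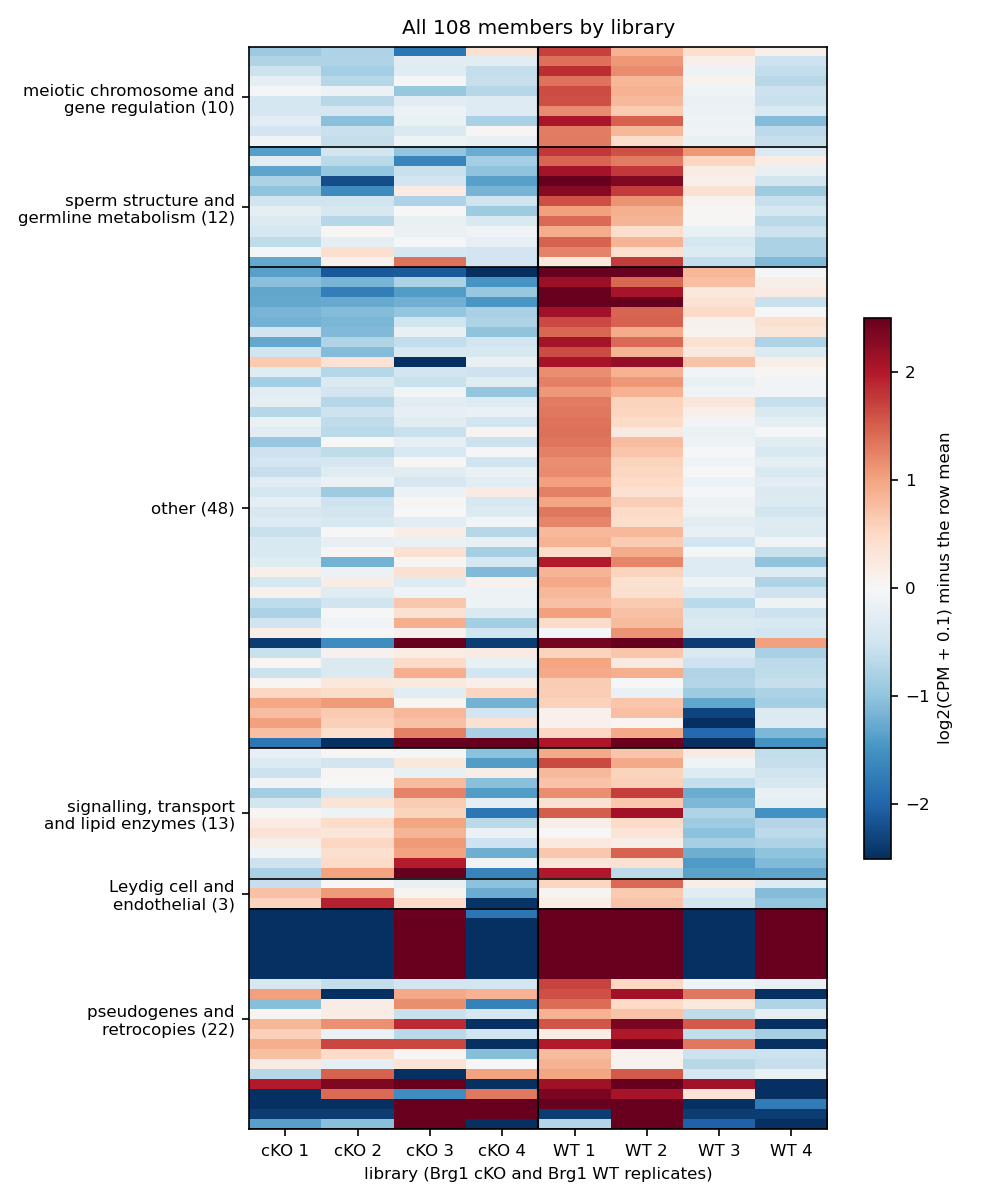
The heat map shows log2(CPM + 0.1) of all 108 transcripts minus each row's mean, with the 4 Brg1 cKO libraries on the left, the 4 Brg1 WT libraries on the right and rows grouped by role. Meiotic genes other than Msh4 lie within 2-fold across the Brg1 cKO libraries, whereas signalling genes are highest in Brg1 cKO replicate 3 in 11 of 13 rows and 19 of 22 pseudogene rows differ by 2-fold or more among the Brg1 cKO libraries.

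The 10 genes of the meiotic chromosome and its regulation shared an order among the Brg1 WT libraries. All 10 were higher in Brg1 WT replicate 1 than in replicate 2, and higher in replicate 3 than in replicate 4. The 12 transcripts of sperm structure and germline metabolism came close, with 11 and 12 in that order. Of all genes tested, 64.5% were higher in Brg1 WT replicate 1 than in replicate 2. None passed the test between genotypes, although all 10 fitted values were negative, with a median log2 fold change of -1.005. In 9 of the 10 the Brg1 cKO libraries lay within 2-fold of each other, Msh4 being the exception. Over all 10 the Brg1 cKO mean was 0.533 (Msh4) to 1.097 (Rad51ap2) times that of Brg1 WT replicates 3 and 4, with a median ratio of 0.940.

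Hfm1 encodes a DNA helicase needed for crossover formation. It had 28.5, 26.6, 15.2 and 17.8 CPM in Brg1 cKO replicates 1 to 4, against 91.4, 53.7, 27.1 and 20.1 CPM in Brg1 WT replicates 1 to 4. The Brg1 cKO libraries lay below Brg1 WT replicates 1 and 2 and overlapped replicates 3 and 4. Its log2 fold change was -1.02 ± 0.46 (SE, n = 4 each, adjusted p = 0.15 by edgeR) with all libraries and -0.07 (adjusted p = 0.91) without Brg1 WT replicates 1 and 2.

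Meiob encodes a single-stranded DNA-binding protein that works in meiotic recombination. Its level was 12, 8.54, 13.5 and 9.44 CPM in Brg1 cKO replicates 1 to 4, against 36.1, 24.9, 14.9 and 8.61 CPM in Brg1 WT replicates 1 to 4. Rad51ap2, a gene of the germline, had 16.4, 11.5, 15.8 and 15.4 CPM in Brg1 cKO replicates 1 to 4, against 42.9, 23.6, 15.2 and 11.7 CPM in Brg1 WT replicates 1 to 4. For both genes the Brg1 cKO libraries lay below Brg1 WT replicates 1 and 2 and overlapped the range of replicates 3 and 4. The log2 fold change was -0.86 ± 0.38 for Meiob (SE, adjusted p = 0.14 by edgeR) and -0.56 ± 0.34 for Rad51ap2 (SE, adjusted p = 0.27).

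Msh4 encodes a MutS homologue that stabilises recombination intermediates. It was low in every library, with 0.576, 0.642, 0.262 and 1.56 CPM in Brg1 cKO replicates 1 to 4, against 4.08, 2.22, 1.57 and 1.28 CPM in Brg1 WT replicates 1 to 4. Brg1 cKO replicate 4 overlapped the Brg1 WT libraries and the other three Brg1 cKO libraries lay below them all. Its log2 fold change was -1.51 ± 0.51 (SE, adjusted p = 0.062 by edgeR). Without Brg1 cKO replicate 4, its highest Brg1 cKO library, Msh4 was called lower, at -2.09 (adjusted p = 0.020 by edgeR), which is a description. Cntd1, a cyclin-related regulator of crossover number, had 5.46, 4.36, 6.47 and 5.24 CPM in Brg1 cKO replicates 1 to 4, against 28.9, 18.3, 7.33 and 5.19 CPM in Brg1 WT replicates 1 to 4. Only Brg1 WT replicate 4 came down into the Brg1 cKO range.

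The regulators among them had the same arrangement. Kctd19, a chromatin-associated factor that mouse spermatocytes need to complete meiosis, had 5.54, 3.19, 5.97 and 3.76 CPM in Brg1 cKO replicates 1 to 4, against 27.9, 19.0, 6.17 and 3.09 CPM in Brg1 WT replicates 1 to 4. Hsf5, a heat shock factor family gene of spermatocytes, had 4.09, 4.09, 5.66 and 5.67 CPM in Brg1 cKO replicates 1 to 4, against 18.1, 14.9, 7.58 and 4.84 CPM in Brg1 WT replicates 1 to 4. Brg1 WT replicate 4 lay within the Brg1 cKO range for Hsf5 and just below its lowest library for Kctd19, while the other three Brg1 WT libraries lay above every Brg1 cKO library in both genes. The log2 fold change was -1.49 ± 0.62 for Kctd19 (SE, adjusted p = 0.12 by edgeR) and -1.12 ± 0.36 for Hsf5 (SE, adjusted p = 0.055). Both genes were called lower without Brg1 WT replicate 4 (adjusted p = 0.038 and 0.016 by edgeR). The rule chose both for low values in that library, so those calls are a description.

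Mtl5, now named Tesmin, encodes a cysteine-rich testis protein that regulates transcription in spermatocytes. It had 17.5, 14.7, 19.6 and 18.9 CPM in Brg1 cKO replicates 1 to 4, against 72.1, 41.7, 21.2 and 16.1 CPM in Brg1 WT replicates 1 to 4. Kdm4d, a testis-rich histone demethylase gene, had 1.85, 1.73, 2.02 and 2.65 CPM in Brg1 cKO replicates 1 to 4, against 6.45, 4.71, 2.43 and 1.63 CPM in Brg1 WT replicates 1 to 4. Brg1 cKO and Brg1 WT overlapped in both genes. Without Brg1 WT replicates 1 and 2 the log2 fold change was -0.05 for Mtl5 and 0.04 for Kdm4d.

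The rule chose every transcript of the set for its order among the Brg1 WT libraries, so their shared variation there was built in. Whether the meiotic transcripts share a regulator was not tested. As a description, their promoters were searched for the core of the MYB site, TAACNG, on both strands. The search covered the 300 bases around each RefSeq start (250 before and 50 after, GRCm38.p6). The core TAACNG was found in 3 of 7 meiotic promoters with a sequence, those of Msh4, Mtl5 and Rad51ap2. The 62 promoters of the whole set with a sequence held it in 25.8%, against 23.2% of 27025 promoters of the same length. The overlapping motif AACNGTT was found in 8.06% of the set against 4.36% of all promoters, the RFX core GTTGCNA in 8.06% against 10.6%, the CRE TGACGTCA in 3.23% against 1.88%, and the E-box CACGTG, searched likewise on both strands, in 8.06% against 7.24%. The 250 bases before the start are shown for both meiotic genes whose match lay there, 5′ to 3′ on the strand of the gene, with the match to TAACNG in capitals. Msh4 lies at chr3:153904892-153905141 on the minus strand and Rad51ap2 at chr12:11455805-11456054 on the plus strand.
Msh4: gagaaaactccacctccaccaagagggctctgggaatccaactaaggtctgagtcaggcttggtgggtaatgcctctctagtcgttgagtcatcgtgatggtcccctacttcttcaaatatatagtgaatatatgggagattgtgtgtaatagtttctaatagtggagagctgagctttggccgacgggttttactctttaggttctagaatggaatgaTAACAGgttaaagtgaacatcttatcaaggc
Rad51ap2: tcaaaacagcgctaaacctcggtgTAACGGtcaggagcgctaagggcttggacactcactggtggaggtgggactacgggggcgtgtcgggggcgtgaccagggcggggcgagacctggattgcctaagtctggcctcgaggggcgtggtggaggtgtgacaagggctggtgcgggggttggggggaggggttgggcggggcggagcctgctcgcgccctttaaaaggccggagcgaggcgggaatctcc
The match stood near the start in Msh4 and far from it in Rad51ap2, and no binding was measured at either.

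Across the whole set, 104 transcripts passed the filter on low counts and were tested between genotypes, and Pdcl2, Ptchd3, Gm10166 and Rps19-ps6 did not. The test called 13 lower in Brg1 cKO, 0 higher and left 91 uncalled; at an unadjusted p under 0.05, 34 were lower and 2 higher. The 13 are 12.5% of those tested. Of all 16059 genes tested, 11.8% were called lower, so the share among the set was near the background. That share does not count the stage markers left out by name. Of the 5 markers that met the same thresholds, 4 were called lower (Adam2, Clgn, Gml and Piwil1) and Ldhc was not. Genes called higher made up 8.79% of all genes tested. The rule picked transcripts high in Brg1 WT replicates 1 and 2, so the negative direction of 86 fitted values, with a median log2 fold change of -0.68 against 0.01 over all genes tested, was in part built into the choice. Leaving out Brg1 cKO replicate 1 gave a count of 8, and leaving out Brg1 WT replicate 2 likewise gave 8. Over all genes, those fits called 1052 and 1137 lower, against 1900 with all libraries. Leaving out Brg1 WT replicate 4, a library that the rule made low, gave 29. DESeq2 on all libraries gave 22 lower and 0 higher. The 29 and the 22 are given without a share over all genes, so neither can be read as an excess in the set.

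Set against Brg1 WT replicates 3 and 4 alone, the transcripts centred on no difference. The Brg1 cKO mean lay above the mean of replicates 3 and 4 in 56 of the 108 and below it in 52, with a median ratio of 1.02, against 1.00 over all genes tested. Without Brg1 WT replicates 1 and 2, 105 were tested, 3 were called lower (Gm13988, Hemt1 and Mroh4) and 0 higher, beside 2.08% of 16436 genes called lower and 0.584% called higher. At an unadjusted p under 0.05, 9 were lower and 10 higher in that comparison. The median log2 fold change was 0.06, against 0.02 over all genes tested. With Brg1 WT replicates 3 and 4 removed instead, 46 were called lower and 1 higher, beside 6.94% and 6.2% of all genes tested. The rule itself made replicates 1 and 2 the high ones and replicates 3 and 4 the low ones, so both comparisons are descriptions.

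All 4 Brg1 cKO libraries lay below all 4 Brg1 WT libraries in 15 of the 108. Of those tested it was 13, or 12.5%, against 17.5% of all genes tested. In 12 transcripts all 4 Brg1 cKO libraries lay above Brg1 WT replicates 3 and 4, a pattern seen in 15.6% of all genes tested. The Brg1 cKO mean exceeded even the mean of Brg1 WT replicates 1 and 2 in 10.

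**Figure D3:**
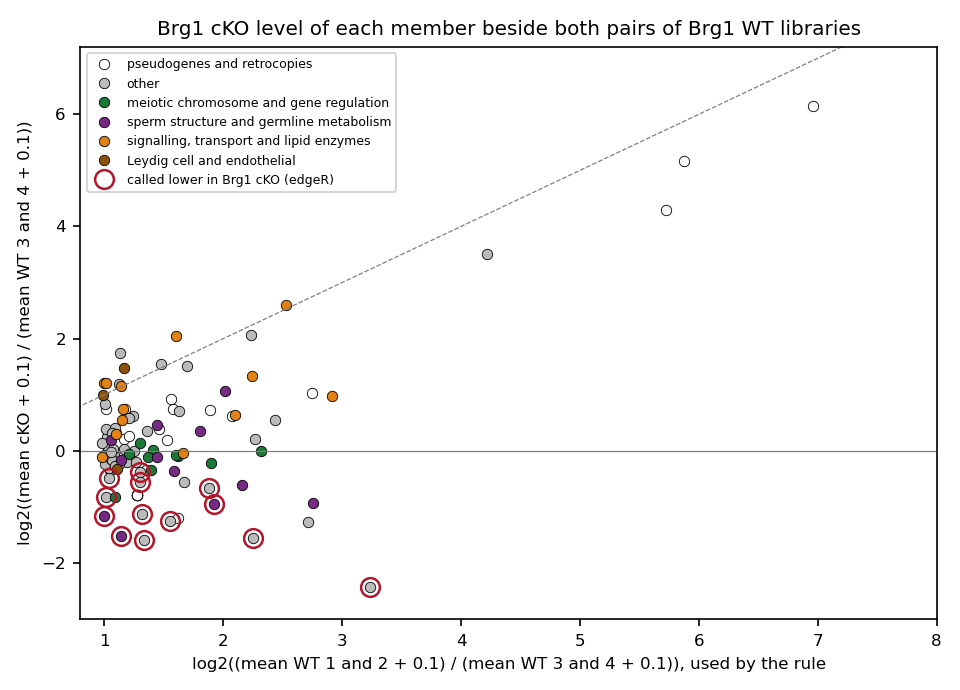
Each point is 1 of the 108 transcripts: the x axis gives the log2 ratio of the means of Brg1 WT replicates 1 and 2 to those of replicates 3 and 4, which the rule used, and the y axis the log2 ratio of the Brg1 cKO mean to that of Brg1 WT replicates 3 and 4, both with 0.1 CPM added. Points lie on both sides of the zero line, 56 above and 52 below by their means, and the 13 circled transcripts called lower in Brg1 cKO all lie below it.

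In 12 of the 13 transcripts called lower, all but 1700102P08Rik, the groups did not overlap. Mroh4, a member of the maestro heat-like repeat family, was close to undetected in Brg1 cKO, with 3, 1, 1 and 0 estimated counts in replicates 1 to 4, against 220, 176, 31 and 12 in the 4 Brg1 WT libraries. That is 0.132, 0.0359, 0.0387 and 0 CPM in Brg1 cKO, against 8.11, 6.97, 0.951 and 0.476 CPM in Brg1 WT. Every Brg1 cKO library lay below every Brg1 WT library (adjusted p = 0.014 by edgeR). The Brg1 cKO counts are too few for a fold change to be given. It was called also without Brg1 WT replicates 1 and 2 (adjusted p = 0.049).

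Hemt1, currently named Gml2, belongs to the Ly6-like family of surface protein genes. Its level was 0.851, 0.907, 1.00 and 1.13 CPM in Brg1 cKO replicates 1 to 4, against 9.07, 5.76, 2.89 and 2.03 CPM in Brg1 WT replicates 1 to 4. The groups did not overlap, and the difference exceeded the spread within each (log2 fold change -2.25 ± 0.42, SE, adjusted p = 0.0087 by edgeR). Without Brg1 WT replicates 1 and 2 it was -1.32 (adjusted p = 0.047). Its annotated span overlaps that of Gml by 1109 bases, so reads may be split between both genes. Gml, left out by name, had 1.12, 0.842, 1.58 and 1.07 CPM in Brg1 cKO replicates 1 to 4, against 19.7, 11.1, 6.08 and 3.61 CPM in Brg1 WT replicates 1 to 4. Mroh4 and Gml lie on chromosome 15 with 11 protein-coding genes between them.

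Ankrd36, an ankyrin repeat gene with 2 to 4 estimated counts in each Brg1 cKO library, had 0.132, 0.0718, 0.116 and 0.195 CPM in Brg1 cKO replicates 1 to 4, against 3.91, 2.26, 0.583 and 0.555 CPM in Brg1 WT replicates 1 to 4. The groups were apart (log2 fold change -3.70 ± 0.74, SE, adjusted p = 0.012 by edgeR), but it missed the threshold when Brg1 WT replicates 1 and 2 were left out (-2.12, adjusted p = 0.058). Gm13988, a gene with a provisional symbol chosen here because it too was called without those replicates, had 1.03, 0.946, 1.25 and 0.742 CPM in Brg1 cKO replicates 1 to 4, against 10.1, 6.22, 3.86 and 2.496 CPM in Brg1 WT replicates 1 to 4. Its log2 fold change was -2.42 ± 0.39 (SE, adjusted p = 0.0052) with all libraries and -1.66 (adjusted p = 0.038) without them. The rest of those called were Glipr1l2, of the GLIPR1 family, and Enthd1, which encodes an ENTH domain protein, each uncalled without Brg1 WT replicates 1 and 2 (adjusted p = 0.30 and 0.43), and BC049730, 1700102P08Rik, Gm648 and Fhl4, a LIM domain gene of the testis, beside the 3 genes of sperm structure and metabolism that follow. Ankrd36, BC049730, Gm13988, Hemt1, Mroh4, Dnaic1 and Nsun7, 7 of the 13, were called in all 8 fits that left out a single library.

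Of the 12 transcripts of sperm structure and germline metabolism, 11 were tested, 3 fell in Brg1 cKO and none rose, with a median log2 fold change of -0.95; over all genes tested 11.8% were called lower and 8.79% higher. Cers3, a ceramide synthase that makes the very long chain ceramides of spermatocytes, had 1.32, 1.70, 2.29 and 1.64 CPM in Brg1 cKO replicates 1 to 4, against 14.7, 11.9, 3.90 and 3.00 CPM in Brg1 WT replicates 1 to 4. It fell by 2.16 ± 0.49 on the log2 scale (SE, adjusted p = 0.019 by edgeR) without overlap. Its adjusted p was 0.059 when Brg1 cKO replicate 1 was left out and 0.092 when Brg1 WT replicates 1 and 2 were.

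Nsun7, an RNA methyltransferase family gene needed for sperm motility in mice, had 1.17, 2.28, 1.57 and 1.30 CPM in Brg1 cKO replicates 1 to 4, against 11.1, 9.79, 6.88 and 2.48 CPM in Brg1 WT replicates 1 to 4. Brg1 WT replicate 4 stood just above the highest Brg1 cKO library. The fold change was -2.15 ± 0.41 on the log2 scale (SE, adjusted p = 0.010 by edgeR), and -1.53 (adjusted p = 0.090) without Brg1 WT replicates 1 and 2.

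Dnaic1, an intermediate chain of axonemal outer arm dynein, had 1.06, 0.789, 0.349 and 0.684 CPM in Brg1 cKO replicates 1 to 4, against 3.76, 3.36, 1.96 and 1.51 CPM in Brg1 WT replicates 1 to 4. The groups did not overlap (log2 fold change -1.79 ± 0.37, SE, adjusted p = 0.013 by edgeR), and the adjusted p was 0.13 without Brg1 WT replicates 1 and 2. Dnah7a, an inner arm dynein heavy chain, had 1.07, 1.06, 0.861 and 1.07 CPM in Brg1 cKO replicates 1 to 4, against 4.95, 3.46, 1.65 and 1.01 CPM in Brg1 WT replicates 1 to 4. Brg1 WT replicate 4 lay within the Brg1 cKO range, and the difference missed the threshold (-1.34 ± 0.42, SE, adjusted p = 0.051).

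Rsph1, a radial spoke head protein of the axoneme, had 20.0, 17.6, 23.4 and 12.6 CPM in Brg1 cKO replicates 1 to 4, against 47.5, 43.6, 23.8 and 17.3 CPM in Brg1 WT replicates 1 to 4. Spesp1, an acrosomal protein of the sperm equator, had 1.63, 1.22, 1.82 and 1.56 CPM in Brg1 cKO replicates 1 to 4, against 5.75, 3.80, 2.12 and 1.27 CPM in Brg1 WT replicates 1 to 4. In both, Brg1 WT replicate 4 overlapped the Brg1 cKO libraries, and neither passed the test with all libraries (adjusted p = 0.12 and 0.11 by edgeR). Without Brg1 WT replicate 4 both were called lower (adjusted p = 0.048 and 0.035). The rule chose both for low values in that library, so these calls are a description.

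In both metabolic members named here, the Brg1 cKO mean lay above that of Brg1 WT replicates 3 and 4, at 1.28 times it for Tktl2 and 1.15 times it for Pdha2. Tktl2, a transketolase-like gene of the testis, had 11.3, 15.1, 17.4 and 15.3 CPM in Brg1 cKO replicates 1 to 4, against 49.5, 32.02, 13.0 and 10.2 CPM in Brg1 WT replicates 1 to 4. Pdha2, the autosomal testis form of the pyruvate dehydrogenase subunit, had 7.21, 10.1, 8.83 and 9.24 CPM in Brg1 cKO replicates 1 to 4, against 18.9, 13.5, 8.65 and 6.78 CPM in Brg1 WT replicates 1 to 4. The Brg1 cKO libraries of both genes lay below Brg1 WT replicates 1 and 2 and overlapped the range of replicates 3 and 4. The log2 fold change was -0.72 ± 0.45 for Tktl2 (SE, adjusted p = 0.28 by edgeR) and -0.34 ± 0.26 for Pdha2 (SE, adjusted p = 0.37).

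**Figure D4:**
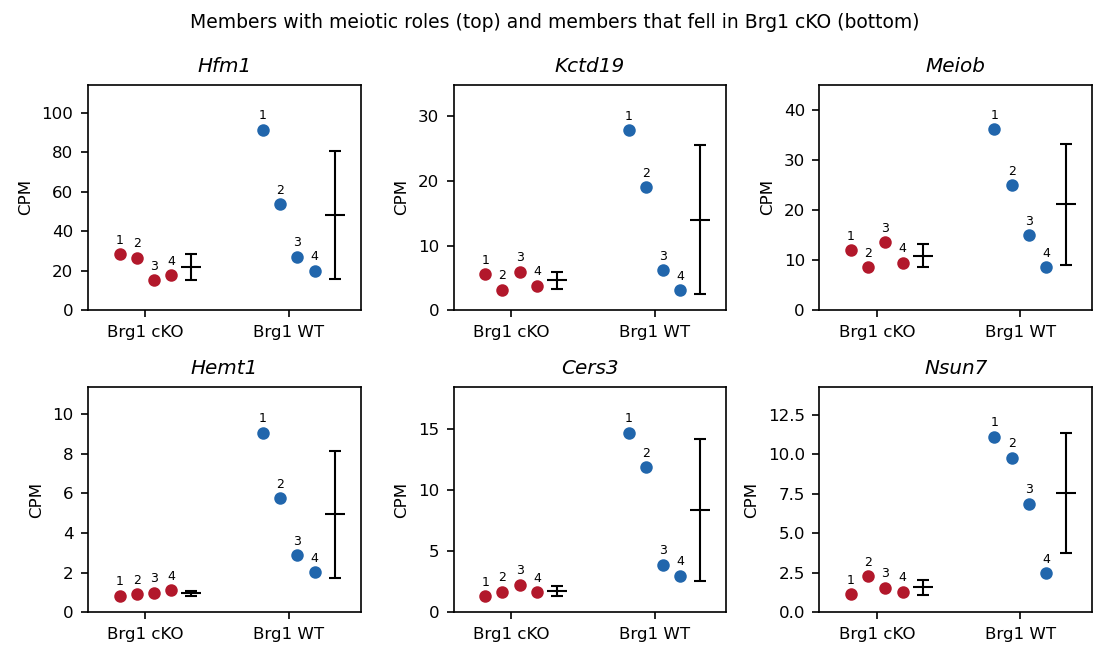
The panels show CPM in each library, numbered by replicate, with Brg1 cKO on the left and Brg1 WT on the right of each panel, and the mean ± SD (n = 4) as a black bar. In the upper row (Hfm1, Kctd19 and Meiob) Brg1 WT replicate 4 lies among the Brg1 cKO libraries or, for Kctd19, just below them, while in the lower row (Hemt1, Cers3 and Nsun7) every Brg1 cKO library lies below every Brg1 WT library.

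The 13 transcripts of signalling, transport and lipid enzymes followed no such order. None was called in either direction, and their median log2 fold change was -0.04. Their Brg1 cKO mean exceeded that of Brg1 WT replicates 3 and 4 in 11 of 13, with a median ratio of 2.03. The Brg1 cKO libraries differed from each other by 2-fold or more in 12 of 13, with replicate 3 highest in 11 and replicate 4 lowest in 10.

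Corin, a transmembrane serine protease known for processing natriuretic peptide in the heart, had 13.3, 26.5, 74.4 and 18.3 CPM in Brg1 cKO replicates 1 to 4, against 23.7, 24.9, 7.09 and 8.80 CPM in Brg1 WT replicates 1 to 4. Brg1 cKO replicate 3 was the highest library of all, and the groups overlapped (log2 fold change 1.14 ± 0.66, SE, adjusted p = 0.25 by edgeR). Kndc1, a brain-rich guanine nucleotide exchange factor gene, had 1.06, 3.98, 13.7 and 0.538 CPM in Brg1 cKO replicates 1 to 4, against 7.96, 1.19, 0.706 and 0.714 CPM in Brg1 WT replicates 1 to 4. Here Brg1 WT replicate 1 alone carried the excess among the Brg1 WT libraries.

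The group held 3 phosphodiesterase genes, whose products break down cyclic nucleotides. Pde10a had 2.86, 2.55, 4.18 and 0.733 CPM in Brg1 cKO replicates 1 to 4, against 8.22, 12.3, 1.63 and 0.912 CPM in Brg1 WT replicates 1 to 4. Pde7b had 1.63, 2.31, 3.57 and 0.687 CPM in Brg1 cKO replicates 1 to 4, against 2.84, 4.99, 0.685 and 0.814 CPM in Brg1 WT replicates 1 to 4. In Pde10a and Pde7b replicate 2 was the highest Brg1 WT library, replicate 3 the highest Brg1 cKO library and replicate 4 the lowest Brg1 cKO library. Pde1c, added after its values were seen, had another order, with 3.43, 5.17, 4.38 and 5.57 CPM in Brg1 cKO replicates 1 to 4, against 8.92, 7.44, 3.99 and 3.53 CPM in Brg1 WT replicates 1 to 4. Its highest Brg1 cKO library was replicate 4 and its lowest replicate 1.

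Lrp8, a receptor for apolipoprotein E and reelin, had 108.4, 189.8, 234.4 and 128.4 CPM in Brg1 cKO replicates 1 to 4, against 195.8, 240.6, 68.7 and 127.3 CPM in Brg1 WT replicates 1 to 4. Itpr2, an intracellular calcium release channel gene chosen after its values were seen, had 18.5, 22.1, 31.7 and 9.97 CPM in Brg1 cKO replicates 1 to 4, against 18.1, 22.4, 8.65 and 9.64 CPM in Brg1 WT replicates 1 to 4. The groups overlapped in both genes, with Brg1 cKO replicate 3 high and Brg1 WT replicate 3 low. Kpna2, an importin alpha that carries proteins into the nucleus and belongs to none of the role groups, had 40.5, 70.5, 91.3 and 54.6 CPM in Brg1 cKO replicates 1 to 4, against 143.6, 116.4, 52.2 and 48.8 CPM in Brg1 WT replicates 1 to 4. Its Brg1 cKO libraries lay below Brg1 WT replicates 1 and 2 and on both sides of replicates 3 and 4.

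Within the Brg1 cKO group, the 3 somatic members were all highest in replicate 2 and lowest in replicate 4. Cyp11a1, the enzyme that starts steroid synthesis from cholesterol in Leydig cells, had 6.39, 16.7, 6.07 and 0.712 CPM in Brg1 cKO replicates 1 to 4, against 4.91, 7.14, 3.13 and 2.15 CPM in Brg1 WT replicates 1 to 4. Insl3, a peptide hormone of Leydig cells, had 4.13, 5.20, 2.56 and 0.969 CPM in Brg1 cKO replicates 1 to 4, against 2.54, 3.88, 2.03 and 1.103 CPM in Brg1 WT replicates 1 to 4. The groups overlapped fully in both, with log2 fold changes of 0.88 ± 0.75 for Cyp11a1 (SE, adjusted p = 0.43 by edgeR) and 0.52 ± 0.50 for Insl3 (SE, adjusted p = 0.48). The summed Leydig cell list was likewise highest in Brg1 cKO replicate 2 and lowest in Brg1 cKO replicate 4 within that group. Plvap, an endothelial membrane protein, ran from 1.07 to 2.30 CPM in Brg1 cKO and from 1.82 to 6.29 CPM in Brg1 WT, where replicate 2 was the highest library of all.

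**Figure D5:**
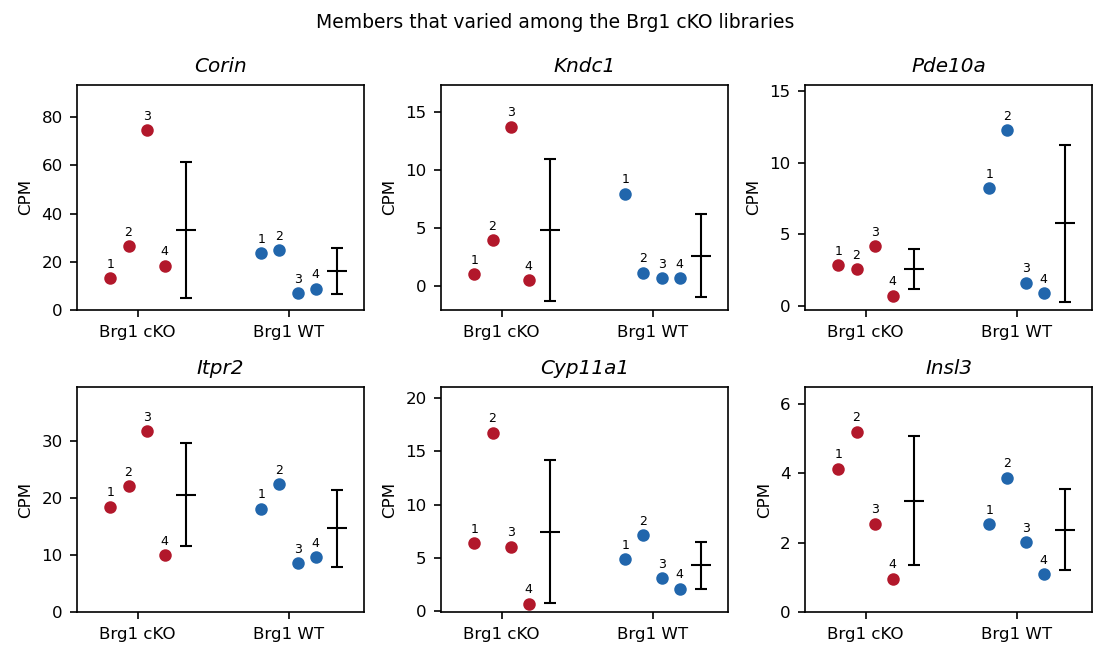
The panels show CPM in each library, numbered by replicate, for 6 transcripts outside the germline groups, with Brg1 cKO on the left and Brg1 WT on the right of each panel, and the mean ± SD (n = 4) as a black bar. Brg1 cKO replicate 3 is the highest Brg1 cKO library for Corin, Kndc1, Pde10a and Itpr2, and replicate 2 for Cyp11a1 and Insl3.

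Most of the 22 pseudogenes and retrocopies varied widely between libraries. Their highest and lowest Brg1 cKO libraries differed by at least 2-fold in 19 of 22, all but Gm13135, Gm6038 and Supt20-ps, and none of the 20 tested was called. Rps2-ps13, a processed copy of a ribosomal protein gene on the X chromosome, had 184.8, 235.7, 336.5 and 0.875 CPM in Brg1 cKO replicates 1 to 4, against 201.6, 389.7, 200.2 and 0 CPM in Brg1 WT replicates 1 to 4. It was near 0 in replicate 4 of both genotypes.

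A block of 6 predicted genes on chromosome 2 (Gm13691, Gm13693, Gm13694, Gm13696, Gm13697 and Gm13698) held identical values, 0.172, 0.0534, 36.6 and 0.188 CPM in Brg1 cKO replicates 1 to 4, against 32.2, 45.4, 0.131 and 31.8 CPM in Brg1 WT replicates 1 to 4. They count as 6 of the 108 although they carry 1 measurement. Reads of such copies match more than one gene, and the levels of all transcripts in this group are uncertain for that reason.

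The variation among the Brg1 cKO libraries, which the rule did not use, was wider in the set than among genes at large. The 4 libraries lay within 2-fold of each other for 52 of the 108, or 48.2%, against 83.2% of all genes tested. Brg1 cKO replicate 3 was the highest Brg1 cKO library for 57 transcripts, or 52.8%, against 23.4% of all genes tested, and replicate 4 was the lowest for 35, or 32.4%, against 23.0%. The 6 transcripts with identical values, highest in Brg1 cKO replicate 3 and more than 2-fold apart, are counted singly in these shares. The 108 also include the 4 that were not tested. Low levels widen such ratios, and the set was not matched to other genes on level.

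Of the 86 transcripts outside the group of pseudogenes and retrocopies, 49 had Brg1 cKO libraries within 2-fold of each other and 37 did not. The 86 include the 6 symbols that RefSeq did not match, whose class is not known here. Among the 49, 47 were higher in Brg1 WT replicate 1 than in replicate 2, beside 64.5% of all genes tested, and the median ratio of the Brg1 cKO mean to that of Brg1 WT replicates 3 and 4 was 0.925. Among the 37, 18 were higher in Brg1 WT replicate 1 than in replicate 2 and the median ratio was 1.46. Brg1 cKO replicate 3 was the highest Brg1 cKO library in 25 of the 37 and replicate 4 the lowest in 20.

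The X-linked transcripts other than pseudogenes numbered 10, of which 1 (Gm648) was called lower and 8 had a negative log2 fold change; that count called is near the 11.8% of all genes tested, and the direction is in part built into the rule. Gm648 had 2.64, 1.65, 3.22 and 1.76 CPM in Brg1 cKO replicates 1 to 4, against 10.1, 7.05, 3.87 and 4.52 CPM in Brg1 WT replicates 1 to 4, and the groups did not overlap. Gm14458, an X-linked gene chosen after its values were seen, had 7.64, 7.33, 4.403 and 7.74 CPM in Brg1 cKO replicates 1 to 4, against 8.21, 4.72, 2.80 and 3.01 CPM in Brg1 WT replicates 1 to 4, and was the single transcript called higher when Brg1 WT replicate 1 was left out.

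The counts of the germline lists stand beside 11.8% of all genes tested called lower and 8.79% called higher. Over all genes tested, the median ratio of Brg1 WT replicates 1 and 2 to replicates 3 and 4 was 1.07. On CPM, which is not scaled by TMM factors, most genes tested were thus also higher in replicates 1 and 2. Those factors were 1.093 and 1.033 in Brg1 WT replicates 1 and 2, against 1.005 and 0.975 in replicates 3 and 4. Scaling by them would lower that ratio, and the list counts of genes higher in replicates 1 and 2 are on unscaled CPM too. Of the 22 leptotene and zygotene genes, 21 had a higher mean in Brg1 WT replicates 1 and 2 than in replicates 3 and 4, 15 fell in Brg1 cKO, none rose, and 3 (Meiob, Msh4 and Rad51ap2) belong to the set. Of 53 axoneme and flagellum genes tested, 48 were higher in Brg1 WT replicates 1 and 2, 22 fell in Brg1 cKO and none rose, with a median log2 fold change of -0.75. Of 23 acrosome and sperm surface genes tested, 19 were higher in Brg1 WT replicates 1 and 2, 2 fell in Brg1 cKO and none rose. Of 19 genes of germline energy metabolism tested, 15 were higher in Brg1 WT replicates 1 and 2, 1 fell in Brg1 cKO and none rose. The shares of the acrosome and energy lists called lower were thus near or below the share over all genes.

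Of 12 genes of undifferentiated spermatogonia, 11 were higher in Brg1 WT replicates 1 and 2, 7 fell in Brg1 cKO and 2 rose, and of 10 genes of differentiating spermatogonia 4 were higher in Brg1 WT replicates 1 and 2, 4 fell in Brg1 cKO and 1 rose; neither list holds a member of the set. Of 29 genes of spermatocyte transcription and chromatin tested, 24 were higher in Brg1 WT replicates 1 and 2, 14 fell in Brg1 cKO and 1 rose. The 37 genes for piRNA and RNA-binding factors tested held no member of the set, although 35 of them were higher in Brg1 WT replicates 1 and 2. Of the 37, 11 fell in Brg1 cKO and 1 rose. Piwil1, which met the thresholds but was left out of the set by name, is not in this list. The 15 immediate early genes ran the other way, with 1 higher in Brg1 WT replicates 1 and 2 and 7 that rose in Brg1 cKO. Their summed level was 6953 to 8257 CPM in Brg1 cKO, against 3806 to 5970 CPM in Brg1 WT. Over all genes tested, 11.8% were called lower and 8.79% higher.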

How the data were processed

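The authors deposited estimated counts per gene symbol for 8 libraries, made with kallisto 0.42.5 and the build mm9, per the submitters' processing notes, which also name edgeR; the sources used here do not give the annotation or how transcripts were summed to symbols. Poly(A) RNA libraries were stranded, per the labels' protocols. Of the deposited estimated counts, 49.4% were not whole (tolerance 1e-06), so reads shared between gene copies are divided by the model. CPM is the count divided by the column sum; fold changes are edgeR's with TMM factors, which ran from 0.961 to 1.09 and tend to lower Brg1 WT replicate 1, so rule CPM and fitted values are on different scalings. Counts were rounded, genes filtered by filterByExpr, and the genotypes compared with edgeR 4.0.16 (robust quasi-likelihood test, R 4.3.3), Benjamini-Hochberg adjustment over all genes tested and a threshold of 0.05. The SE of a log2 fold change was taken as its size over the root of its F statistic. The fit was tested on simulated data. Alternatives used limma 3.58.1 and DESeq2 1.42.0. Every pair of libraries differed beyond sampling noise (chi-square over its degrees of freedom at least 20.2). Each group has 4 libraries labelled biological replicates, and p-values measure the spread between them.

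The members, role groups and gene lists were chosen with earlier results of these data known, and the role groups after the values were seen. Named genes, provisional symbols left out, are the 8 members highest in Brg1 WT replicates 1 and 2, the 8 with the highest ratio to replicates 3 and 4, the 8 called ones with the lowest fold change, called higher ones, up to 3 of each list and 3 on either side of the threshold. Cntd1, Kdm4d, Itpr2, Pde1c, Plvap, Fhl4 and all genes with provisional symbols were added after their values were seen. Gene classes, positions and promoters come from RefSeq on GRCm38.p6, which is not the build of the counts; no coordinates of the counts are used. Some members are not reported here by name.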

Additional observations from a re-analysis of the deposited data

Results flagged for a closer look

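For 39 genes named by the rule, the values of each genotype were checked for a library far from the rest. Chance alone meets this test in about 1 of 20 groups of unselected values. The rule chose members by the order of their Brg1 WT libraries, so that rate does not apply to their Brg1 WT values. In all, 78 groups were checked and 2 met the test, which is a description. Kndc1 stood at 7.96 CPM in Brg1 WT replicate 1, against 0.706 to 1.19 CPM in the other three Brg1 WT libraries, a gap of 0.934 of the whole range. Its place in the set rests on that library. Dnah7a stood at 0.861 CPM in Brg1 cKO replicate 3, against 1.06 to 1.07 CPM in the other three Brg1 cKO libraries, a gap of 0.949 of the range. The others lay close together, so the distance to replicate 3 was small in CPM.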

How the results depend on the processing

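Calls among the transcripts depended on which Brg1 WT libraries were used. With Brg1 WT replicates 1 and 2 removed, the test called 3 members lower and, over all genes, 342 lower and 96 higher; with replicates 3 and 4 removed, it called 46 lower and 1 higher, with 1145 genes lower. Leaving out single libraries gave 8 to 29 members lower and 0 to 1 higher (1 each without Brg1 WT replicate 1, which was Gm14458, and without Brg1 WT replicate 3), with 1052 to 1980 genes lower and 556 to 1497 higher over the whole table. DESeq2 called 22 members lower and 0 higher, while it called 2228 of all genes higher. Its count of all genes called lower is not given here, so the 22 has no background beside it. A fold of 1.5 in the rule gave 386 members, 80 lower and 3 higher; a fold of 3 gave 36 members and 5 lower. A minimum of 1 CPM gave 223 members and 25 lower, a minimum of 10 CPM 52 members and 2 lower. The share of members called lower thus varied with the cutoffs of the rule. Of all genes tested with all 8 libraries, 11.8% were called lower. CPM scaled by TMM factors gave 71 members, all within the 108, with 9 of the 10 meiotic genes among them. Other size factors, no filter, a filter of 1 CPM in 4 libraries and limma-voom gave 9 to 13 members lower and 0 higher. Over all genes, the other size factors called 1818 and 2022 lower, no filter 1685 and the filter of 1 CPM 1778. The count over all genes for limma-voom is not given here. Of 627 alternative values for 37 named genes, 574 kept their side of the threshold, 25 lost a call, 28 gained one and 0 were counted as reversed. These counts did not require the fitted sign to hold, and in some uncalled genes it changed. Without Brg1 WT replicates 1 and 2 the log2 fold change of Kctd19 went from -1.49 to 0.03 and that of Tktl2 from -0.72 to 0.38. That of Hfm1 stayed negative, at -0.07. The cause of these shifts was not tested.

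Libraries with the same number were not paired by the data: their deviations correlated at -0.206, 0.127, -0.367 and 0.152 for numbers 1 to 4, and Brg1 cKO replicates 2 and 4 alone correlated best with the Brg1 WT library of their own number. With the replicate number as a block, 9 members were called lower and 0 higher, and over all genes 1169 were lower and 745 higher. Depth limits the low members: Mroh4 had 3 counts at most in a Brg1 cKO library.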

Other observations

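The mirrored rule, with Brg1 WT replicates 3 and 4 above replicates 1 and 2 by the same thresholds, gave 91 genes. None of the 89 tested was called by edgeR in either direction (before adjustment, 1 was lower and 1 higher at p under 0.05). Brg1 cKO replicate 1, which the rule did not use, was the highest Brg1 cKO library for 66 of the 91, or a larger share than the 15.5% of all genes tested that were highest in it. B2m, the light chain of class I antigen-presenting molecules, had 413.3, 32.5, 30.7 and 33.3 CPM in Brg1 cKO replicates 1 to 4, against 20.6, 25.2, 399.5 and 162.3 CPM in Brg1 WT replicates 1 to 4. Tap1, a subunit of the peptide transporter that loads them, had 100.7, 5.70, 5.27 and 14.2 CPM in Brg1 cKO replicates 1 to 4, against 3.61, 4.09, 29.8 and 8.63 CPM in Brg1 WT replicates 1 to 4. The choice of both genes was made after seeing their values. Brg1 cKO replicate 1 was the highest library of all in both. The order of Brg1 WT replicates 3 and 4 above replicates 1 and 2 is what the mirrored rule selected.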
